A study of Mus musculus with 14 samples.

Results

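The genes described here are the mouse dual-specificity phosphatases and the Sprouty and Spred proteins, chosen by symbol (Dusp followed by a number, Spry1 to Spry4, Spred1 to Spred3). There were 31 of them, namely 24 Dusp, 4 Spry and 3 Spred genes, among 35171 gene rows of the bulk tables, and the same 31 gene identifiers stood among the 28692 of the single-cell gene list. Bulk RNA-seq (13 libraries) and droplet single-cell RNA-seq (1 library) of mouse liver measured their transcripts. The series is about P2Y14, a receptor for UDP-glucose, and hepatic stellate cells, which store vitamin A beside the liver sinusoid and turn into matrix-producing cells after injury.

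In the bulk set, 3 libraries came from stellate cells that had 24 h of culture with UDP-glucose at 10 µM, and 3 from control cultures without it. Both cultured groups carry the strain label Balbc, had 5 h in 10% serum before 0.1% serum, and have no sort described. The titles of the treated libraries say UDP, and their descriptions say UDP-glucose. A further 4 libraries came from quiescent, unplated stellate cells of LratCre+, TdTom+ mice in C57BL/6J, in which Cre driven by Lrat marks stellate cells, and these cells were sorted for vitamin A and TdTom. The last 3 bulk libraries came from whole liver tissue of the same strain. None of the livers was injured. The single-cell library came from 1 perfused and digested C57BL/6 liver with a Chromium droplet kit. Whether libraries of a group came from separate mice or dishes is not stated, so p-values here reflect only differences among these libraries, and those may be technical.

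Mitogen-activated protein kinases (ERK, JNK and p38) are switched on when an upstream kinase phosphorylates a threonine and a tyrosine in their activation loop. The MAP kinase phosphatases among the Dusp proteins remove both phosphates, and each has its own place and preference: Dusp1, Dusp2, Dusp4 and Dusp5 are nuclear and induced by growth signals or stress, Dusp6, Dusp7 and Dusp9 are cytoplasmic and act on ERK, and Dusp8, Dusp10 and Dusp16 act on JNK and p38. Sprouty and Spred proteins act further up, between receptor tyrosine kinases and RAF. Several genes of both families are transcribed in response to ERK itself and so form a negative feedback loop. Most of the remaining, atypical Dusp proteins are small phosphatases with varied substrates, some of which are not MAP kinases.

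The promoters of 4 genes are shown because Dusp1, Spry1 and Dusp6 had the largest falls in culture reported further on, and because Dusp5 carries 2 serum response motifs side by side. Each sequence is the 250 bases before the RefSeq start site on the gene's own strand (GRCm38.p6). Capitals mark the cAMP response element TGACGTCA, the shorter TGACG within it or the reverse complement CGTCA (called the short site here), and the CArG box, which binds serum response factor. The windows lie at chr17:26508473-26508722 (minus strand) for Dusp1, chr19:53528895-53529144 (plus) for Dusp5, chr10:99262981-99263230 (plus) for Dusp6 and chr3:37639697-37639946 (plus) for Spry1.
Dusp1: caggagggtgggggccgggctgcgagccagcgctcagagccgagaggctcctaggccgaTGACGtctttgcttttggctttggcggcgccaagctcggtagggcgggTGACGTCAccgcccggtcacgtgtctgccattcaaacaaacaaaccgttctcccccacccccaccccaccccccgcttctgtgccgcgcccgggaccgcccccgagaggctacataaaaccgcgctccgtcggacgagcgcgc
Dusp5: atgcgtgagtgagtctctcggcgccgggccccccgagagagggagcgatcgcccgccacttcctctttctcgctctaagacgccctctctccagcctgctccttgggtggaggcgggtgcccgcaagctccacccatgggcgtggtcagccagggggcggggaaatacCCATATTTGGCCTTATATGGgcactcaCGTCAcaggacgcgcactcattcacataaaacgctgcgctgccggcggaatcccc
Dusp6: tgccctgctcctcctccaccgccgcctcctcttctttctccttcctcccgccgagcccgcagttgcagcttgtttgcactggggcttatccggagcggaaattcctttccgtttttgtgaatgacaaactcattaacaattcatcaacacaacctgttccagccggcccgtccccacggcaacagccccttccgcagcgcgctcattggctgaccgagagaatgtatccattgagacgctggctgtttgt
Spry1: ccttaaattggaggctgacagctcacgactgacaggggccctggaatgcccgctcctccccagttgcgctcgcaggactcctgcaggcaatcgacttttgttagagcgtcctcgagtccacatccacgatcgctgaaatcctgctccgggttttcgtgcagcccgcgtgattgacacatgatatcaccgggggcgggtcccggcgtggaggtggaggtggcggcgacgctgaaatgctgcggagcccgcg

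The Dusp1 window held a full cAMP response element at positions -143 to -136 from the start site and a separate short site at -191 to -187. The Dusp5 window held CArG boxes at -82 to -73 and -72 to -63, and a short site at -55 to -51. Dusp6 and Spry1 had none of the motifs searched. Both strands of 300-base windows (250 before to 50 after the start) were searched, and 23 of the 31 genes had such a window. A gene was counted where any of its windows held the motif (Dusp13 had 4), while the shares are of single windows. The full element was in 2 of the 23, Dusp1 and Dusp8, against 1.792% of 32817 promoter windows, and the short site, which overlaps the full element, was in 8 of 23 against 20.79%. The CArG box was in 1 of 23 against 1.63%, the AP-1 motif TGANTCA in 1 of 23 (Dusp13) against 7.813%, and the ETS motif CCGGAAG in 1 of 23 (Dusp27) against 8.855%. A match describes letters and not a bound site.

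Bulk values are TPM, transcript levels scaled by length and library total, from which depth cannot be recovered. Genes at or above 1 TPM numbered 12061 to 12156 in UDP-glucose cultures, 12049 to 12434 in control cultures, 12182 to 12289 in quiescent cells and 9941 to 10447 in whole liver. Stellate markers (12 genes, among them Lrat, Dcn and Reln) summed to 10375 to 11816 TPM in UDP-glucose cultures, 12500 to 13173 in control cultures, 70634 to 78683 in quiescent cells and 84.9 to 198 in whole liver, which fits the labels of the sorted cells. Hepatocyte markers summed to 59.5 to 79.3 TPM in quiescent cells and 63991 to 93559 in whole liver.

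The 31 transcripts together took 802 to 880 TPM in UDP-glucose cultures, 720.3 to 767 TPM in control cultures, 3521 to 4182 TPM in quiescent cells and 155 to 197 TPM in whole liver. The 4 groups did not overlap in this sum. Dusp1, a nuclear phosphatase of p38, JNK and ERK, alone made up 20.8 to 22.4% of it in UDP-glucose cultures, 19.8 to 21.3% in control cultures, 54.1 to 57.4% in quiescent cells and 32.7 to 44.0% in whole liver. A mean of at least 1 TPM was reached by 22, 22, 23 and 14 of the 31 genes in those 4 groups, and a mean of at least 20 TPM by 12, 12, 13 and 3. Of the 8 genes under a mean of 1 TPM in every group (Dusp9, Dusp13, Dusp14, Dusp15, Dusp21, Dusp26, Dusp27 and Spry3), the highest value in any library was 0.854 TPM, and Dusp21 was listed at 0 in all 13.

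**Figure D1:**
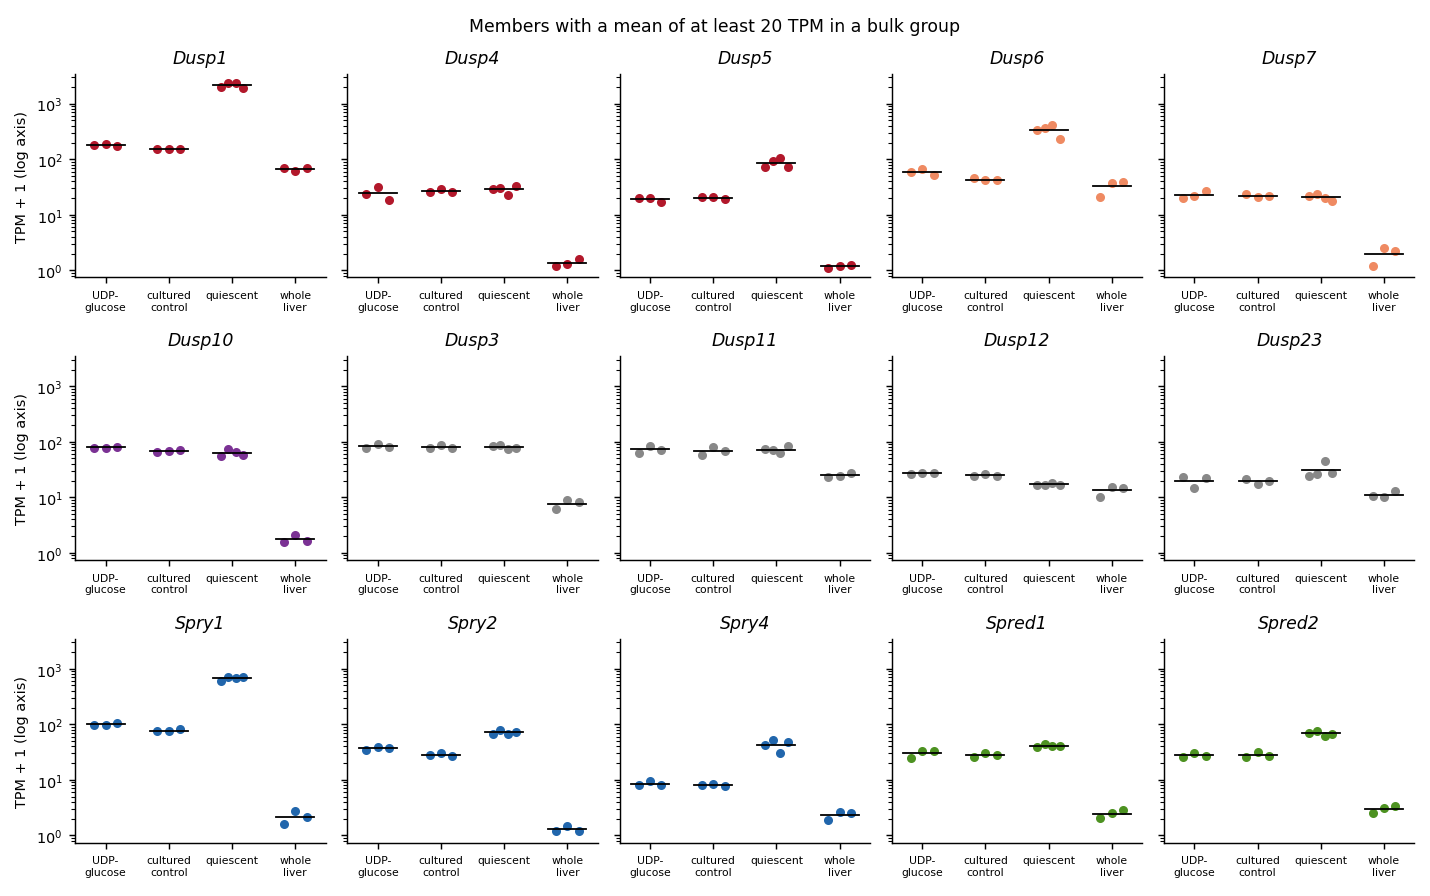
TPM + 1 on a log axis (points are libraries, lines are means) for the 15 genes that average 20 TPM or more in a group, with UDP-glucose cultures, control cultures, quiescent cells and whole liver from left to right. Dusp1, Dusp6, Spry1 and Spry4 stand several times higher in quiescent cells than in control cultures, while Dusp3 averages 78.9 to 82.2 TPM in the 3 stellate groups, and most genes are lowest in whole liver.

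Quiescent stellate cells were first set against whole liver, which asks which of these regulators the sorted cells carry above the tissue they came from. Of the 23 Dusp, Spry and Spred genes tested, Spry1 had the largest difference. Spry1, an inhibitor of receptor tyrosine kinase signalling to RAS and ERK, was at 604, 707, 668 and 724 TPM in the 4 quiescent libraries and at 0.626, 1.78 and 1.12 TPM in the 3 liver libraries. Its fold change was 8.31 ± 0.17 on the log2 scale (SE), with adjusted p = 6.15e-12 in limma. Of its exon bases, 24.43% lie in another gene model (Gm42922), and the sources used here do not say whether quantification used strand.

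The other tested Sprouty genes and 2 of 3 Spred genes were called higher as well, where 67.0% of all genes were. Spry2 was at 66.3, 76.7, 66.4 and 72.5 TPM in quiescent cells and at 0.195, 0.449 and 0.220 TPM in liver (log2 fold change 5.80 ± 0.12, adjusted p = 6.53e-12). It passed the minimum of 1 TPM for a test only through the quiescent cells and so had to differ. Spry4, whose product also restrains ERK activation, was at 40.6, 50.4, 29.5 and 46.2 TPM in quiescent cells and 0.890, 1.64 and 1.57 TPM in liver (4.16 ± 0.19). Neither gene had a quiescent library near the liver range. Spred1, which brings the RAS-inactivating protein neurofibromin to the membrane, was at 37.7, 42.9, 40.5 and 39.1 TPM in quiescent cells and 1.08, 1.501 and 1.81 TPM in liver (4.07 ± 0.13). Spred2 was at 69.3, 75.6, 61.5 and 66.6 TPM in quiescent cells and 1.57, 2.09 and 2.41 TPM in liver (4.52 ± 0.13). Spred3 stayed low, with 1.42 to 2.22 TPM in quiescent cells and 0.361 to 0.652 TPM in liver. Its log2 fold change of 0.87 was under the size required, and it too passed the minimum only through the quiescent cells.

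All 4 nuclear inducible phosphatases were called higher in quiescent cells on the deposited scale, where 67.0% of all genes were. After the median-of-ratios rescaling described further on, 3 of 4 were called higher, against 3373 of all 12643 genes. Dusp2 (0.86) was not. Dusp2, Dusp4 and Dusp5 passed the minimum of 1 TPM only through the quiescent cells and so had to differ. Dusp1 was at 2029, 2377, 2334 and 1904 TPM in quiescent cells and at 67.9, 60.2 and 69.0 TPM in liver (log2 fold change 5.01 ± 0.12, adjusted p = 2.22e-11). It was the most abundant of the 31 genes in both groups. Dusp5, which is specific for ERK, was at 72.9, 92.9, 104 and 72.5 TPM in quiescent cells and at 0.0897, 0.185 and 0.252 TPM in liver (6.19 ± 0.15), with 22.12% of its exon bases inside another gene model (AC137853.2). Dusp4, a nuclear phosphatase of ERK and JNK, was at 28.5, 29.3, 21.7 and 31.3 TPM in quiescent cells and at 0.181, 0.281 and 0.565 TPM in liver (4.42 ± 0.16). Dusp2 was scarce in both, at 1.64 to 2.76 TPM in quiescent cells and 0.0713 to 0.232 TPM in liver (1.55 ± 0.17).

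The cytoplasmic ERK phosphatase Dusp6 was at 342, 371, 409 and 228 TPM in quiescent cells and at 19.6, 36.4 and 38.6 TPM in liver (log2 fold change 3.41 ± 0.25). Quiescent replicate 4 was the lowest of its group and still several times the highest liver library. Its relative Dusp7 was at 20.5, 22.6, 18.7 and 16.8 TPM in quiescent cells and 0.210, 1.52 and 1.202 TPM in liver (3.44 ± 0.23). Among phosphatases of JNK and p38, Dusp10 was at 53.7, 72.9, 63.3 and 55.9 TPM in quiescent cells and 0.552, 1.10 and 0.665 TPM in liver (5.14 ± 0.15), and Dusp8 was at 4.08, 8.08, 5.98 and 9.61 TPM against 0.1504, 0.129 and 0.0807 TPM (2.77 ± 0.23). Dusp16 was at 11.02, 11.2, 8.29 and 11.4 TPM in quiescent cells and 3.49, 6.53 and 5.01 TPM in liver. Its log2 fold change of 0.96 missed the required size. Dusp7, Dusp8 and Dusp10 passed the minimum of 1 TPM only through the quiescent cells and so had to differ.

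Of the 8 atypical phosphatases tested 7 were called higher on the deposited scale, against 67.0% of all genes. After median-of-ratios rescaling 2 were higher and 1 lower, where 3373 of all 12643 genes were higher. Of the 8, Dusp18 passed the minimum of 1 TPM only through the quiescent cells and so had to differ. Dusp3, which encodes VHR, an enzyme able to act on ERK and JNK, was at 81.2, 85.8, 73.8 and 74.8 TPM in quiescent cells and at 5.04, 7.93 and 7.06 TPM in liver (log2 fold change 3.40 ± 0.15), and 12.9% of its exon bases lie in another gene model (Gm20659). Dusp11, an RNA phosphatase, was at 71.7, 69.0, 61.4 and 82.2 TPM in quiescent cells and 22.5, 22.9 and 26.5 TPM in liver (1.53 ± 0.13). Dusp23 was at 22.7, 25.7, 43.5 and 25.9 TPM in quiescent cells and 9.74, 9.03 and 11.9 TPM in liver (1.40 ± 0.20). Dusp12 was at 15.6, 15.9, 17.1 and 15.5 TPM in quiescent cells and 9.23, 14.2 and 14.0 TPM in liver, a log2 fold change of 0.36 with 49.76% of its exon bases in other gene models. None of these 4 genes overlapped between the groups, which held for 91.1% of all genes. Dusp19 was at 9.98, 13.7, 8.65 and 11.5 TPM in quiescent cells and 2.10, 2.27 and 2.58 TPM in liver (1.83 ± 0.15), a difference of 0.24 after median-of-ratios rescaling and 0.12 after quantile normalisation that was then not called. Dusp22, a phosphatase of the JNK pathway, was at 14.5, 13.4, 12.6 and 13.3 TPM in quiescent cells and 5.53, 6.48 and 5.10 TPM in liver (1.11 ± 0.12). Dusp28 was at 11.2, 12.8, 11.1 and 12.9 TPM in quiescent cells and 2.84, 5.75 and 6.01 TPM in liver (1.19 ± 0.20). The scarce Dusp18 averaged 3.01 ± 0.775 TPM in quiescent cells and 0.00622 ± 0.0108 TPM in liver (1.97 ± 0.18).

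In all, 23 of the 31 genes were tested, 20 were called higher in quiescent cells (adjusted p under 0.05 and a log2 fold change of at least 1), 0 were called lower, and Dusp12, Dusp16 and Spred3 were not called. Among all genes tested, 67.0% were called higher and 10.9% lower, and the median log2 fold change was 3.40 for these 23 genes and 1.62 for all genes. The groups did not overlap for 23 of 23, against 91.1% of all genes. Of the 23, 9 passed the minimum of 1 TPM only through the quiescent cells and so had to differ. They were Dusp2, Dusp4, Dusp5, Dusp7, Dusp8, Dusp10, Dusp18, Spred3 and Spry2, and their tests add nothing to that. Over all genes, 3377 of 12643 passed through only 1 of the groups. Hepatocyte markers summed to 63991 to 93559 TPM in liver. Mitochondrial transcripts took 18.5 to 22.4% of TPM in liver and 4.87 to 5.67% in quiescent cells. Their part in the scale was not tested. The scale was also set by median-of-ratios rescaling. This moved the median of all genes to 0.04 and left 50.6% of calls higher, in place of 85.98%. On that scale 14 of the 23 genes were higher and 1 lower. Of all 12643 genes tested, 6672 were called on that scale, 3373 of them higher. Spry1 (6.82), Dusp5 (5.15), Spry2 (4.66), Dusp10 (3.76), Dusp4 (3.27), Dusp1 (3.09), Spred2 (2.89), Spry4 (2.64), Spred1 (2.52), Dusp7 (2.12), Dusp8 (1.91), Dusp3 (1.58), Dusp6 (1.498) and Dusp18 (1.39) kept a log2 fold change over 1. Dusp2 (0.86) and Dusp19 (0.24) lost their calls. Dusp12 was called lower (-1.45), and Dusp11, Dusp16, Dusp22, Dusp23, Dusp28 and Spred3 turned negative (-0.74 to -0.08) without being called.

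**Figure D2:**
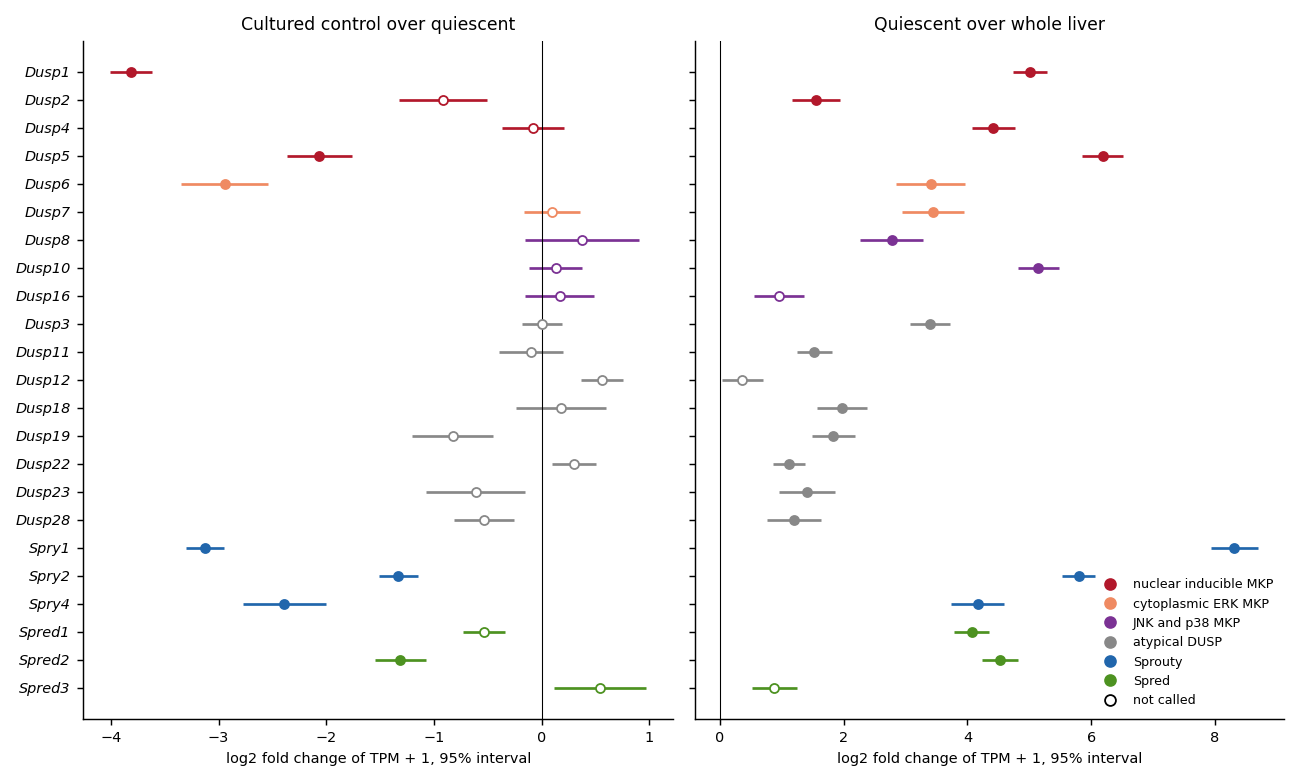
Log2 fold changes of TPM + 1 with 95% intervals from limma for the 23 genes tested, control cultures over quiescent cells on the left and quiescent cells over whole liver on the right. Colours give the role of each gene and open circles mark genes that were not called. On the left the called genes run from -3.81 (Dusp1) to -1.31 (Spred2), and on the right the largest value is 8.31 (Spry1).

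Markers of other cells were measured beside these differences. Endothelial markers summed to 295 to 904 TPM in quiescent cells and 36.6 to 84.4 TPM in liver (9 of 10 called higher, and 7 higher and 1 lower after median-of-ratios rescaling), and Kupffer markers to 89.5 to 186 TPM in quiescent cells and 57.2 to 105 TPM in liver (5 of 10 higher, and 0 higher and 2 lower after rescaling), with 0 of 20 at a mean under 0.1 TPM in quiescent cells. Their part in the differences was not tested. In bulk samples, fewer cells of a type and less RNA per cell cannot be told apart. Quiescent cells were digested and sorted and liver was not, and the 2 groups stand in separate tables, so handling, table and cell type cannot be told apart.

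Transcripts of the same pathways were counted beside them. Of 19 tested transcripts known to be induced by ERK, 19 were called higher on the deposited scale and 18 after median-of-ratios rescaling. Among all genes, 67.0% were called higher on the deposited scale. Of the 19, 6 passed the minimum of 1 TPM only through the quiescent cells and so had to differ, Fosb and Ier3 among them. Ksr1 and Cblb, named below, passed in the same way. Fosb, a partner in AP-1, had 3282 ± 474 TPM in quiescent cells (SD, n = 4) and 0.979 ± 0.632 TPM in liver (n = 3), and Ier3 and Atf3, both immediate early genes, had 519 ± 57.5 and 969 ± 177 TPM in quiescent cells against 0.449 ± 0.210 and 2.24 ± 1.43 TPM in liver. Of 22 components of the RAS to ERK cascade, 18 were called higher and 1 (Rps6ka1) lower, but 5 higher and 4 lower after rescaling. The adaptor Gab1 led them with 92.3 ± 7.17 TPM in quiescent cells and 1.24 ± 0.242 TPM in liver, followed by the scaffold Ksr1 (36.4 ± 3.61 and 0.297 ± 0.0891 TPM) and Mapk3, which encodes ERK1 (279 ± 19.0 and 15.1 ± 2.69 TPM). Of 15 components of the JNK and p38 cascades, 13 were higher and 0 lower, against 2 higher and 1 lower after rescaling. Mapk12, a p38 kinase, had 33.9 ± 2.33 TPM in quiescent cells and 1.92 ± 0.199 TPM in liver, and Mapk9, which encodes JNK2, had 106.7 ± 5.01 TPM in quiescent cells and 9.38 ± 1.65 TPM in liver. Map3k7, a kinase upstream of both cascades, had 34.9 ± 6.32 and 6.30 ± 1.25 TPM in those groups, and was not called after rescaling. Of 10 other feedback regulators 7 were higher and 0 lower (5 and 3 after rescaling), among them the cytokine signalling inhibitor Socs3 with 1089 ± 125 TPM in quiescent cells and 5.81 ± 1.16 TPM in liver, the ubiquitin ligase gene Cblb with 20.9 ± 6.01 and 0.899 ± 0.277 TPM, and the tyrosine phosphatase gene Ptpn12 with 63.8 ± 4.77 and 6.48 ± 1.61 TPM.

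The single-cell library gives these transcripts by class of liver cell. It held 5063 barcodes with 968 to 47577 UMIs each, of which 4808 were kept, and clusters were given names ending in "-like" from fixed markers. Levels are the UMIs of a gene summed over a class and scaled to the total of that class (CPM), with exact Poisson intervals that cover counting error only, and with 1 library there is no test. Free RNA adds UMIs to cells that do not make a transcript: Alb, the albumin gene of hepatocytes, had a UMI in 59.9% of stellate-like cells (332 CPM) and 44.2% of endothelial-like cells (320 CPM), against 99.6% of hepatocyte-like cells (17105 CPM). Low levels of a gene in a class are therefore not read as expression there. Of the 31 genes, 26 had a UMI in some cell, 5 had none (Dusp15, Dusp21, Dusp26, Dusp27 and Spry3), and 6 of the 26 had under 20 UMIs.

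Spry1 was concentrated in stellate-like cells, which held 519 of its 708 UMIs (73.3%) while making up 7.74% of cells. Its level was 424 CPM (95% interval 388 to 462) there, against 26.4 CPM in endothelial-like, 11.7 in T-like, 7.47 in Kupffer-like and 0.695 in hepatocyte-like cells. A Spry1 UMI was found in 235 of 372 stellate-like cells (63.2%, exact binomial interval 58.0 to 68.1%, median 3091.5 UMIs a cell) and in 1 of 491 hepatocyte-like cells (0.204%, median 1861 UMIs). After each cell was thinned to 1000 UMIs the shares were 33.5% of 370 stellate-like cells and 0 of 473 hepatocyte-like cells, which allows a share of cells with a UMI of up to 0.634% and does not limit the share that expresses the gene. Among clusters left unnamed, the highest Spry1 level was 115 CPM (71.1 to 176) in 48 cells led by both stellate and Kupffer genes.

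Spry2 had its highest level among named classes in stellate-like cells too, at 138 CPM (118 to 161), against 69.1 CPM (60.8 to 78.3) in endothelial-like, 44.8 in T-like and 4.87 in hepatocyte-like cells. It was higher still in an unnamed cluster of 245 cells led by Plau, at 238 CPM (194 to 290). Endothelial markers were the best match of that cluster, with 5 among its 50 leading genes but 0 among its leading 10, so it was given no name. Spry4 was instead highest in endothelial-like cells, at 46.1 CPM (39.3 to 53.7), against 23.7 CPM (15.9 to 34.0) in stellate-like cells. Spred1 was at 80.1 CPM (65.0 to 97.6) in stellate-like, 74.7 (58.2 to 94.3) in Kupffer-like and 56.1 (48.6 to 64.4) in endothelial-like cells, and Spred2 at 72.7 (58.4 to 89.5) in stellate-like and 63.3 (55.4 to 72.1) in endothelial-like cells. For Spred1 the stellate-like interval lay just above the endothelial-like one and overlapped the Kupffer-like one, and for Spred2 the intervals overlapped.

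Phosphatases were spread more widely. Dusp1 was at 439.7 CPM (403 to 478) in stellate-like, 429.8 (409 to 452) in endothelial-like and 438 (397 to 483) in Kupffer-like cells, with overlapping intervals, and at 152 CPM in T-like and 115 CPM in hepatocyte-like cells. An unnamed cluster of 147 cells led by Rspo3 and Fabp4 stood above these, at 733 CPM of Dusp1 (638 to 838). Dusp6 was at 126 CPM (107 to 147) in stellate-like, 103 (92.8 to 114) in endothelial-like and 106 (85.8 to 129) in Kupffer-like cells. Dusp3 was highest in endothelial-like cells, at 679 CPM (652 to 706) against 304 CPM (274 to 337) in stellate-like cells, and reached 1234 CPM in the unnamed cluster led by Plau, where it was itself among the 10 leading genes.

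Lymphoid cells carried other members. Dusp2, first described in activated T cells, was at 189 CPM (151 to 234) in B-like and 149 CPM (126 to 176) in T-like cells, against 9.81 CPM (5.07 to 17.1) in stellate-like cells. Dusp5 was at 80.0 CPM (49.5 to 122) in plasmacytoid dendritic-like and 48.0 CPM (35.0 to 64.2) in T-like cells, against 22.1 CPM (14.5 to 32.1) in stellate-like cells. An unnamed cluster of 98 cells led by Gzma and Ccl5 had 195 CPM of Dusp2 (138 to 268) and 108 CPM of Dusp5 (66.8 to 165). Dusp9 had 8 UMIs in all, 6 of them in 73 plasmacytoid dendritic-like cells. Dusp10 was at 31.1 CPM (22.0 to 42.6) in stellate-like and 17.8 CPM (13.7 to 22.7) in endothelial-like cells. With the rule that an interval must lie above that of every other named class, 2 genes were highest in stellate-like cells (Spry1 and Spry2), 2 in endothelial-like cells (Dusp3 and Spry4) and 0 in any other named class.

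**Figure D3:**
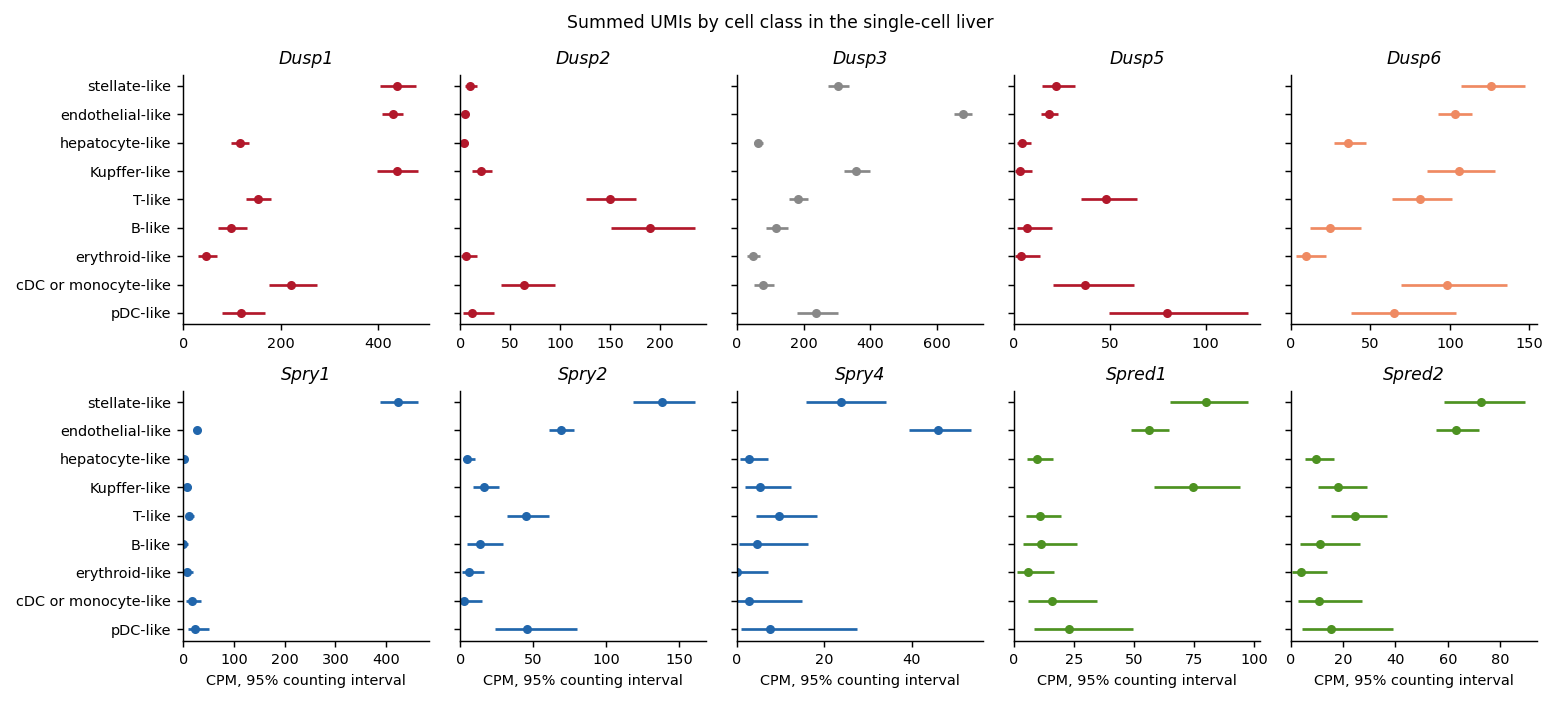
CPM with 95% counting intervals (horizontal axes) for 10 genes in 9 named cell classes of the single-cell liver, from summed UMIs, with the plasma-like class of 16 cells left out. Spry1 stands alone in stellate-like cells at 424 CPM, Dusp1 is near 430 to 440 CPM in stellate-like, endothelial-like and Kupffer-like cells, and Dusp2 is highest in B-like and T-like cells.

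Control cultures were then set against quiescent cells, from which they differ in strain, sorting, culture and table at once. Here 7 of the 23 genes tested were called lower in culture and 0 higher, against 13.2% and 18.6% of all genes. Dusp1 was at 154, 152 and 151 TPM in the 3 control cultures and at 2161 ± 231 TPM in quiescent cells (SD, n = 4). On the log2 scale the fold change was -3.81 ± 0.09 (SE), with adjusted p = 3.03e-09 in limma. Spry1 was at 74.1, 73.2 and 81.4 TPM in control cultures and 676 ± 53.3 TPM in quiescent cells (-3.13 ± 0.08, adjusted p = 5.84e-09). Dusp6 was at 44.7, 40.9 and 40.5 TPM in control cultures and 338 ± 78.0 TPM in quiescent cells (-2.94 ± 0.18, adjusted p = 9.02e-07). In each the highest culture lay far under the lowest quiescent library.

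A further 4 genes fell. Spry4 was at 7.03, 7.29 and 6.70 TPM in control cultures and 41.7 ± 9.06 TPM in quiescent cells (log2 fold change -2.39 ± 0.17). Dusp5 was at 19.7, 20.1 and 18.5 TPM in control cultures and 85.6 ± 15.5 TPM in quiescent cells (-2.07 ± 0.13). Spry2 was at 27.4, 28.8 and 25.9 TPM in control cultures and 70.5 ± 5.09 TPM in quiescent cells (-1.33 ± 0.08), and Spred2 at 24.3, 30.8 and 25.7 TPM and 68.2 ± 5.87 TPM (-1.31 ± 0.10). The 3 cultures lay close together for each of the 4, and none reached the quiescent range. Of the promoters searched, 6 belonged to the 7 genes that fell. Of these, 1 held the full cAMP response element, 3 its short site, 1 a CArG box and 0 an AP-1 or ETS motif. Of all 23 genes searched, 2 held the full element, 8 the short site, and 1 each a CArG box, AP-1 or ETS motif. Of all promoter windows, 1.792% held the full element, 20.79% the short site, 1.63% a CArG box, 7.813% AP-1 and 8.855% ETS.

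Other phosphatases overlapped between the groups. Dusp4 was at 24.8, 28.0 and 25.2 TPM in control cultures and 27.7 ± 4.17 TPM in quiescent cells, with a log2 fold change of -0.08 (95% interval -0.37 to 0.21), where Dusp1 and Dusp5 of the same nuclear group fell. Dusp7 was at 22.7, 19.7 and 20.5 TPM in control cultures and 19.6 ± 2.49 TPM in quiescent cells (0.10, interval -0.16 to 0.36), Dusp10 at 64.5, 66.2 and 70.5 TPM and 61.5 ± 8.68 TPM (0.13, -0.11 to 0.38), and Dusp3 at 76.2, 86.3 and 74.8 TPM and 78.9 ± 5.65 TPM (0.00, -0.18 to 0.19). On the rescaled data Dusp3, Dusp7 and Dusp10 turned negative (-0.26, -0.16 and -0.13). Dusp11 was at 55.8, 78.1 and 65.9 TPM in control cultures and 71.1 ± 8.61 TPM in quiescent cells (-0.10, -0.39 to 0.20), and Dusp8 at 8.54, 9.30 and 8.90 TPM and 6.94 ± 2.42 TPM (0.37, -0.16 to 0.90).

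Smaller differences passed the adjusted p but not the required size. Spred1 was at 25.2, 29.8 and 27.1 TPM in control cultures and 40.1 ± 2.23 TPM in quiescent cells (log2 fold change -0.54 ± 0.09, adjusted p = 0.000422). Dusp12 was at 23.3, 25.7 and 23.3 TPM in control cultures and 16.03 ± 0.763 TPM in quiescent cells (0.56 ± 0.09, adjusted p = 0.000319). Dusp23 was at 20.2, 16.4 and 18.5 TPM in control cultures and 29.5 ± 9.49 TPM in quiescent cells (-0.61 ± 0.20, adjusted p = 0.0230). In the same class were Dusp19, with 5.67, 6.49 and 4.90 TPM in control cultures and 10.95 ± 2.17 TPM in quiescent cells, Dusp28, with 8.13, 6.82 and 9.05 TPM and 12.0 ± 0.986 TPM, and Dusp22, with 16.3, 17.1 and 16.998 TPM and 13.4 ± 0.817 TPM. Dusp2 (log2 fold change -0.91) and Spred3 (0.54) belong there too. Dusp16 was at 10.2, 13.2 and 12.3 TPM in control cultures and 10.5 ± 1.47 TPM in quiescent cells, and Dusp18 averaged 3.49 ± 0.374 and 3.01 ± 0.775 TPM, both with overlap.

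In this comparison 23 of the 31 genes were tested, 7 were called lower in culture and 0 higher, against 13.2% of all genes called lower and 18.6% higher. By role, the 7 were 2 of 4 nuclear inducible phosphatases, 1 of 2 tested cytoplasmic ERK phosphatases, 0 of 3 JNK and p38 phosphatases, 0 of 8 tested atypical phosphatases, 3 of 3 tested Sprouty genes and 1 of 3 Spred genes. The groups did not overlap for 15 of 23, against 70.0% of all genes, and the median log2 fold change was -0.53 for the 23 genes and 0.26 for all genes. Dusp2 passed the minimum level only through quiescent cells. After median-of-ratios rescaling the median of all genes was 0.02, and the share of calls that were higher was 43.3% in place of 58.6%. On that scale 9 of the 23 genes were lower, the 7 with Dusp2 (-1.06) and Dusp19 (-1.06). Of all 12537 genes tested, 3576 were then called, 1547 of them higher.

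ERK-induced transcripts moved with them in part. Of 19 tested, 13 were called lower in control cultures and 1 higher (15 and 1 after rescaling). Fosb had 1.03 ± 0.163 TPM in control cultures and 3282 ± 474 TPM in quiescent cells (log2 fold change -10.65), Fos 9.98 ± 1.26 and 7230 ± 474 TPM (-9.37), and Egr1 42.7 ± 3.94 and 3348 ± 349 TPM (-6.26). The 1 called higher was Fosl1, named after its values were seen, which encodes the AP-1 subunit Fra-1, with 84.1 TPM in control cultures and 1.75 TPM in quiescent cells (5.00). Of 21 components of the RAS to ERK cascade, 3 were higher and 1 lower (1 and 2 after rescaling), among them Hras with 88.5 ± 6.89 TPM in control cultures and 26.8 ± 3.11 TPM in quiescent cells, Nras with 42.9 ± 5.34 and 17.5 ± 2.09 TPM, and Gab1 with 30.3 ± 2.80 and 92.3 ± 7.17 TPM. Nras was not called after rescaling. Of 15 components of the JNK and p38 cascades 3 were higher and 1 lower, led by the p38 activator Map2k3 with 148.9 ± 4.36 and 44.2 ± 4.85 TPM. Of 10 other feedback regulators 3 were lower and 0 higher: Socs3 with 33.0 ± 1.21 TPM in control cultures and 1089 ± 125 TPM in quiescent cells, the EGF receptor inhibitor Errfi1 with 86.1 ± 4.28 and 477 ± 176 TPM, and the ubiquitin ligase gene Cblb with 8.48 ± 1.80 and 20.9 ± 6.01 TPM.

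Endothelial markers summed to 8.09 to 11.3 TPM in control cultures and 295 to 904 TPM in quiescent cells (10 of 10 lower, 3 of 10 at a mean under 0.1 TPM in culture). Kupffer markers summed to 0.429 to 1.15 TPM in control cultures and 89.5 to 186 TPM in quiescent cells (10 of 10 lower, 7 of 10 under 0.1 TPM), and 11 of 12 stellate markers were also lower. Hepatocyte markers summed to 232 to 267 TPM in control cultures and 59.5 to 79.3 TPM in quiescent cells, with 1 of 10 called higher and 3 lower. The part of any of these in the falls was not tested. Strain, sorting, culture and table all differ between these groups and cannot be told apart. The comparison with whole liver shares the quiescent libraries, so Dusp1, for which quiescent cells gave 2161 TPM, was at 152 TPM on average in control cultures and 65.7 TPM in liver, and Spry1 at 76.2 and 1.17 TPM.

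UDP-glucose cultures were last set against control cultures, the question of the series for P2Y14. None of the 22 genes tested passed the adjusted threshold in limma, where 0.609% of all genes did (74 of 12161). At an unadjusted p under 0.05 there were 5, all higher with UDP-glucose, against 3.42% of all genes higher at that level and 10.0% in either direction. They were Dusp6, Spry2, Spry1, Dusp1 and Dusp10, and the same 5 were those whose libraries did not overlap, against 16.3% of all genes.

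Dusp6 was at 58.0, 64.3 and 51.8 TPM with UDP-glucose and at 44.7, 40.9 and 40.5 TPM in control cultures, 37.98% higher on average (log2 fold change 0.45 ± 0.09 SE, 95% interval 0.23 to 0.67, adjusted p = 0.128). Spry2 was at 33.1, 37.9 and 36.7 TPM with UDP-glucose and 27.4, 28.8 and 25.9 TPM in control cultures, 31.1% higher (0.38 ± 0.09, 0.18 to 0.58, adjusted p = 0.166). Spry1 was at 95.7, 95.6 and 104 TPM with UDP-glucose and 74.1, 73.2 and 81.4 TPM in control cultures, 29.2% higher (0.37 ± 0.07, 0.20 to 0.53, adjusted p = 0.0952). For these 3 genes the lowest treated library was above the highest control library.

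Dusp1 was at 179.5, 188 and 173 TPM with UDP-glucose and 154, 152 and 151 TPM in control cultures, 18.2% higher (log2 fold change 0.24 ± 0.06, interval 0.11 to 0.37, adjusted p = 0.173). Dusp10 was at 76.5, 77.7 and 79.2 TPM with UDP-glucose and 64.5, 66.2 and 70.5 TPM in control cultures, 16.03% higher (0.21 ± 0.06, 0.06 to 0.36, adjusted p = 0.298). The treated and control libraries stood apart here too. Over the alternatives run, adjusted p ran from 0.0937 to 0.784 for Dusp6, 0.0578 to 0.567 for Spry2, 0.1002 to 0.607 for Spry1, 0.116 to 0.617 for Dusp1 and 0.234 to 0.859 for Dusp10.

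The other 17 genes tested had log2 fold changes between -0.17 (Dusp4) and 0.16 (Dusp16), and their libraries overlapped. Dusp4 was at 22.3, 30.8 and 17.4 TPM with UDP-glucose and 24.8, 28.0 and 25.2 TPM in control cultures. Its interval of -0.61 to 0.26, from 3 libraries a group, leaves room for a fall or a smaller rise. Dusp5, a nuclear ERK phosphatase, was at 19.0, 19.3 and 16.2 TPM with UDP-glucose and 19.7, 20.1 and 18.5 TPM in control cultures (-0.09, -0.33 to 0.14), unlike its relative Dusp1 in that the groups overlapped. Spry4 was at 7.04, 8.59 and 7.06 TPM with UDP-glucose and 7.03, 7.29 and 6.70 TPM in control cultures (0.09, -0.20 to 0.39). Spred1 was at 23.4, 32.4 and 31.7 TPM with UDP-glucose and 25.2, 29.8 and 27.1 TPM in control cultures (0.08, -0.24 to 0.40), and Spred2 at 24.5, 29.3 and 25.4 TPM and 24.3, 30.8 and 25.7 TPM (-0.02, -0.30 to 0.25, positive at 0.02 under both other scalings).

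Among the remaining phosphatases, Dusp3 was at 77.6, 88.7 and 80.3 TPM with UDP-glucose and 76.2, 86.3 and 74.8 TPM in control cultures (log2 fold change 0.06, interval -0.14 to 0.25). Dusp11 was at 62.4, 84.3 and 69.7 TPM with UDP-glucose and 55.8, 78.1 and 65.9 TPM in control cultures (0.12, -0.23 to 0.46). In both genes the spread within each group was wider than the difference between the means. Dusp12 was at 24.8, 26.7 and 26.1 TPM with UDP-glucose and 23.3, 25.7 and 23.3 TPM in control cultures (0.10, -0.10 to 0.29), and Dusp7 was at 19.3, 20.4 and 25.9 TPM with UDP-glucose and 22.7, 19.7 and 20.5 TPM in control cultures (0.05, -0.25 to 0.35). Dusp23 was at 21.9, 13.4 and 21.6 TPM with UDP-glucose and 20.2, 16.4 and 18.5 TPM in control cultures (0.02, -0.43 to 0.46). The libraries of both groups overlapped for each of these genes, and the intervals leave room for changes in either direction. Dusp16 was at 11.8, 15.7 and 12.8 TPM with UDP-glucose and 10.2, 13.2 and 12.3 TPM in control cultures, and Dusp22 was at 16.2, 13.2 and 19.5 TPM with UDP-glucose and 16.3, 17.1 and 16.998 TPM in control cultures. Dusp8 was at 9.02, 9.78 and 9.64 TPM with UDP-glucose and 8.54, 9.30 and 8.90 TPM in control cultures, and Dusp19 was at 4.88, 6.93 and 6.31 TPM with UDP-glucose and 5.67, 6.49 and 4.90 TPM in control cultures. Dusp28 was at 6.77, 7.07 and 7.11 TPM with UDP-glucose and 8.13, 6.82 and 9.05 TPM in control cultures. These 5 overlapped as well. The scarce Dusp18 averaged 3.05 ± 0.281 TPM with UDP-glucose and 3.49 ± 0.374 TPM in control cultures, and Spred3 averaged 3.02 ± 1.22 and 3.16 ± 0.893 TPM.

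**Figure D4:**
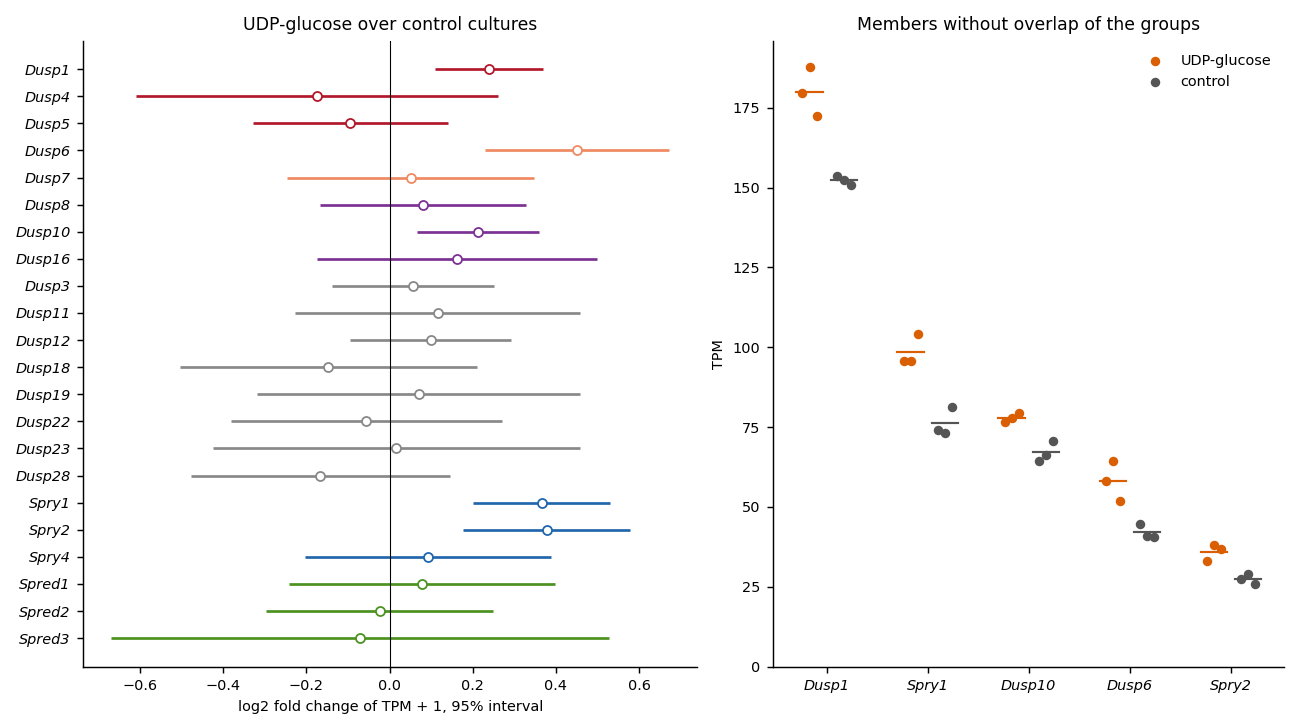
Left, log2 fold changes of TPM + 1 (UDP-glucose over control cultures) with 95% limma intervals for the 22 genes tested, coloured by role as in the plot of culture and liver. Right, TPM of the 5 genes whose groups did not overlap (points are the 3 libraries a group, lines are means), with UDP-glucose left of control. All circles are open because 0 genes passed the adjusted threshold, and the 5 genes on the right have intervals above 0.

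The median log2 fold change was 0.07 for the 22 genes and -0.05 for all genes. Pathway transcripts also gave 0 calls on the deposited scale, among 21 tested components of the RAS to ERK cascade, 15 of the JNK and p38 cascades, 18 ERK-induced transcripts and 10 other feedback regulators, where 3, 4, 2 and 2 had an unadjusted p under 0.05. Of these 0, 0, 2 and 1 were higher with UDP-glucose, and 10.0% of all genes passed that level in either direction (1220 of 12161). After median-of-ratios rescaling Srf, the gene of serum response factor, and Errfi1 were called higher. Stellate markers summed to 10375 to 11816 TPM with UDP-glucose and 12500 to 13173 TPM in control cultures, without overlap, with 1 of 12 called higher and 1 lower. Both cultured groups stand in 1 table. The comparison shares its control cultures with the one against quiescent cells, so the levels stand side by side: Dusp6 averaged 58.0 TPM with UDP-glucose, 42.1 TPM in control cultures and 338 TPM in quiescent cells, and Spry1 averaged 98.5, 76.2 and 676 TPM in those groups.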

How the data were processed

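Bulk expression was deposited as TPM per gene in 3 tables, and per the submitters' processing notes kallisto 0.44.0 was used. The single-cell library was deposited as UMI counts per gene and cell, from Cell Ranger per the same notes. The builds named there are GRCm38 and mm10. The sources used here do not state strand. Of 35197 rows in each TPM table, 26 with date-like names (at most 0.3195% of TPM) were left out. The genes, the lists and the comparisons were chosen with earlier results of these data known.

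Tests were limma 3.58.1 (R 4.3.3) with a trend on log2(TPM + 1), two-sided, for genes averaging 1 TPM or more over the libraries compared, fitted on those 2 groups only. P-values were Benjamini-Hochberg adjusted over all genes tested, and calls needed an adjusted p under 0.05 and, except for UDP-glucose, a log2 change of 1 or more in either direction. Fold changes on this scale understate those of low genes. A Dusp, Spry or Spred gene is given with every library where it averaged 5 TPM or more in a group compared. Of each pathway list, up to 3 called genes of 20 TPM or more are named by size of change. Alternatives were a pseudocount of 0.1, no filter, median-of-ratios rescaling, quantile normalisation, 1 fit of all 13 libraries and leaving out each library. Replicates correlated at 0.9809 to 0.9911 (Pearson, log2, 12931 genes).

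Barcodes under 500 UMIs, under 200 genes or over 20% mitochondrial UMIs were dropped, and the rest were clustered with scanpy 1.11.5 (2000 variable genes, 30 components, 15 neighbours, resolution 1). A cluster was named where at least 3 markers of a type were among its 50 leading genes and at least 1 among its leading 10, with at least 2 times as many among the 50 as for any other type, no other type ahead among the 10 and no other type's marker in first place. That naming rule, and leaving the 3 variable Dusp, Spry or Spred genes out of clustering, were set after the data were seen. Of 20 clusters 13 were named, and 700 cells stayed unnamed. Scrublet called 1 of 4808 cells and so had not worked, and no doublets were removed. Intervals are exact at 95% and cover counting error only, and for a share of cells a count of 0 was taken to allow 3 counts.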

Additional observations from a re-analysis of the deposited data

Results flagged for a closer look

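Quiescent replicate 3 stood apart from the other 3 quiescent libraries for 2 of the 20 genes examined by Dixon's gap test, which flags about 1 in 20 groups by chance. Dusp23 was at 43.5 TPM there, the highest of the group, against 22.7 to 25.9 TPM in the others. Dusp16 was at 8.29 TPM there, the lowest, against 11.02 to 11.4 TPM in the others. Neither gene was called in the cultures, and Dusp23 was called higher in quiescent cells than in liver.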

How the results depend on the processing

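Of the single results and settings computed, 592 were held the same, 5 lost their call without changing sign, 27 changed sign and 1 count moved. The 27 include genes that also lost their call, namely Dusp11, Dusp22, Dusp23 and Dusp28 against liver. A count was held the same within a set factor, so the fall from 20 to 14 genes called higher against liver is among the 592. For quiescent cells against liver, median-of-ratios rescaling gave log2 fold changes of -0.37 for Dusp11, -0.63 for Dusp22, -0.42 for Dusp23 and -0.50 for Dusp28, and quantile normalisation gave -0.63 for Dusp22, -0.29 for Dusp23 and -0.54 for Dusp28. For control cultures against quiescent cells, the values were -0.26 for Dusp3, -0.16 for Dusp7 and -0.13 for Dusp10 after median-of-ratios rescaling, and -0.29, -0.16 and -0.17 after quantile normalisation. Leaving out 1 library gave -0.0605 to 0.0438 for Dusp3 and -0.22 to 0.0201 for Dusp11. For UDP-glucose, Spred2 was at 0.0249 after median-of-ratios rescaling and 0.0221 after quantile normalisation, and leaving out 1 library gave -0.38 to 0.0140 for Dusp4, -0.0721 to 0.13 for Dusp7, -0.0027 to 0.24 for Dusp11, -0.0030 to 0.22 for Spred1 and -0.10 to 0.0746 for Spred2. The cause was not tested. Without single libraries, 19 to 21 genes were called higher in quiescent cells than in liver, 7 to 8 lower in culture, and 0 with UDP-glucose. Thinned to 1000 UMIs, 1 gene (Spry1) was highest in stellate-like cells in place of 2, since the exact interval of the 16 plasma-like cells, with 0 Spry2 UMIs, reached 231 CPM and Spry2 in stellate-like cells was at 146 CPM (109.6 to 190). No paired analysis was possible because the labels give the groups no shared replicate numbers. TPM keep no depth, so counting error in the bulk libraries cannot be given.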
